A study of Mus musculus with 6 samples.

Results

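The collagens and a set of fibroblast matrix genes were followed in cultures of mouse keratinocytes. Members were all array genes whose full name is Col, a number, a and a number, apart from Col17a1, together with 13 named genes of fibroblasts and their matrix (Dcn, Lum, Bgn, Fmod, Postn, Fbn1, Fn1, Sparc, Tnc, Pdgfra, Pdgfrb, Thy1 and Vim). This gave 52 genes, 39 collagens and the 13 named genes, of 27573 gene names on the array. They were read by 102 of the 41174 different probes. A gene was tested where a probe was well above background, by the scanner's own flag, on all arrays of at least 1 group. That held for 44 members, 31 collagens and all 13 named genes, of 16495 genes tested on the whole array.

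Keratinocytes, the epithelial cells of the epidermis, and hair follicle buds had been isolated from the epidermis of newborn wild type mice. Both groups were then transduced with v-ras-Ha, a viral oncogene, by adenovirus at 10 particles per cell. The treated group received Anakinra, a recombinant form of the natural antagonist of the interleukin-1 receptor, at 5 ug/ml from 5 hours after transduction, with replacement after 2 days and harvest after 3 days (3 cultures, named here Anakinra 1 to 3). Its controls received PBS, a buffered salt solution, and carry v-ras-Ha too (3 cultures, PBS 1 to 3), so that no comparison with cells free of v-ras-Ha can be made here. The labels do not say whether the 3 cultures of a group came from separate animals or isolations, and p-values here can only reflect how far these 6 cultures spread, which may be technical.

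Collagens are trimers of long helical chains that carry the tensile strength of skin. Fibrillar collagens, made mainly by dermal fibroblasts, form the fibrils, and small leucine-rich proteoglycans such as lumican and decorin bind to them and regulate their width. Keratinocytes are known to make collagens of the basement membrane zone, above all type IV, type VII and type XVII chains, while interleukin-1 is a cytokine that epidermal cells store and release and that fibroblasts respond to.

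Levels are given as log2 of the processed signal relative to the 75th percentile of the same array, so that 0 stands for the 75th percentile. Changes are the difference of the group means, Anakinra minus PBS, on that log2 scale. A positive change is higher in Anakinra. Tests used limma across all 16495 genes, and a gene was called where its Benjamini-Hochberg adjusted p was under 0.05. Levels of different probes are not comparable with each other. The arrays differed in quality. Between 55.6% and 86.5% of spots were well above background on the Anakinra arrays and between 62.5% and 71.0% on the PBS arrays, with the highest share on Anakinra 2. Array-to-array correlations over all tested genes were 0.957 to 0.983 within Anakinra and 0.995 to 0.997 within PBS. The median SD of a gene was 0.175 in Anakinra and 0.0951 in PBS. Slide 1 held Anakinra 1, PBS 2 and PBS 3, and slide 2 held Anakinra 2, Anakinra 3 and PBS 1.

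The markers of the labelled cell type were present. All 16 keratinocyte markers, among them Krt5, Krt14, Trp63 and Col17a1, were well above background on all 6 arrays, none was called, and their median change was 0.17 (-0.16 with each array set to its own median). The smallest p were those of Krt6a, a keratin of activated epidermis, at 0.26, and Dsp (desmoplakin) at 0.20, with limma adjusted p of 0.177 and 0.250. Their summed signal, in units of the 75th percentile of the array, was 2267 to 2479 in Anakinra and 2244 to 2522 in PBS. Some markers of other cells were also above background. Of the 27573 gene names on the whole array, 14126 were above background on all 6 arrays. A count near that share does not by itself show that a cell type was present. Of 16 fibroblast markers that are not matrix genes, 10 were above background on all 6 arrays, and so were 9 of 10 melanocyte markers, 4 of 8 pericyte and smooth muscle markers, 4 of 8 endothelial markers, 4 of 10 immune markers, 3 of 6 Schwann cell markers and 1 of 8 dermal papilla markers. Markers that lacked a full group above background were not tested. Among them were Fap and Tcf21 of fibroblasts, Ptprc and Cd3e of leukocytes and Cdh5 of endothelium. In the same lists, Acta2 and Cdh11, Cd68 and Tyrobp, and Pecam1 and Vwf were among those above background on all 6 arrays. In such bulk RNA, fewer cells of a type and less RNA per cell cannot be told apart.

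Of the 44 tested members, 3 were called after Anakinra, or 6.82%, where 1.77% of all tested genes were called. Lum and Col3a1 rose and Col8a1 fell, and the other 41 did not pass the test. Those 2 of 44 rises, 4.55%, stand against 0.97% of all tested genes called higher, and the single fall, 2.27%, stands against 0.8% of all genes called lower. With counts this small the shares give little. Ranges were more uneven. All 3 Anakinra arrays lay above all 3 PBS arrays for 14 of 44 members, or 31.8%, against 12.5% of all tested genes. The opposite order held for 3 members (Col8a1, Col18a1 and Dcn), or 6.82%, against 13.8% of all genes. Groups were apart in either order for 26.2% of all genes. Here and below, such orders are on the 75th percentile scale and were not counted with other scalings. Median intensity was 138 on Anakinra 2 and 49.0 to 73.3 on the other arrays, while the 75th percentile was 864 to 1087. With each array set to its median, Anakinra 2 therefore moves down beside the others, and groups apart here can overlap. The change was positive for 33 of 44 members, or 75%, against 52.3% of all genes, with a median of 0.25 over the members and 0.013 over all genes. At an unadjusted p under 0.05, 13 members were higher and 2 lower, where 8.48% and 7.61% of all genes were.

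Of the 44 tested members, 35 were above background on all 6 arrays, and 9 entered only because all PBS arrays passed (Col4a3, Col5a3, Col9a1, Col11a1, Col13a1, Col22a1, Col23a1, Col25a1 and Fmod). No member entered through the Anakinra arrays alone. Over the 34 of these with a value on every array, all but Col27a1, the median level was -0.57, -0.51 and -0.54 in Anakinra 1, 2 and 3, and -0.80, -0.98 and -0.70 in PBS 1, 2 and 3. The change was positive for 29 of these 35, against 51.6% of all genes above background on all arrays, with medians of 0.32 over the members and 0.0095 over all such genes. The sign of the members' median depended on the scaling. With each array set to its own median in place of its 75th percentile, the median of all genes moved to -0.32 and that of the members to -0.08, and 18 of 44 members were positive. That change of scaling shifts every gene by the same amount, so it leaves the members' distance from all genes at 0.23 by construction. Quantile scaling, which is no constant shift, gave a members' median of 0.16.

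**Figure D1:**
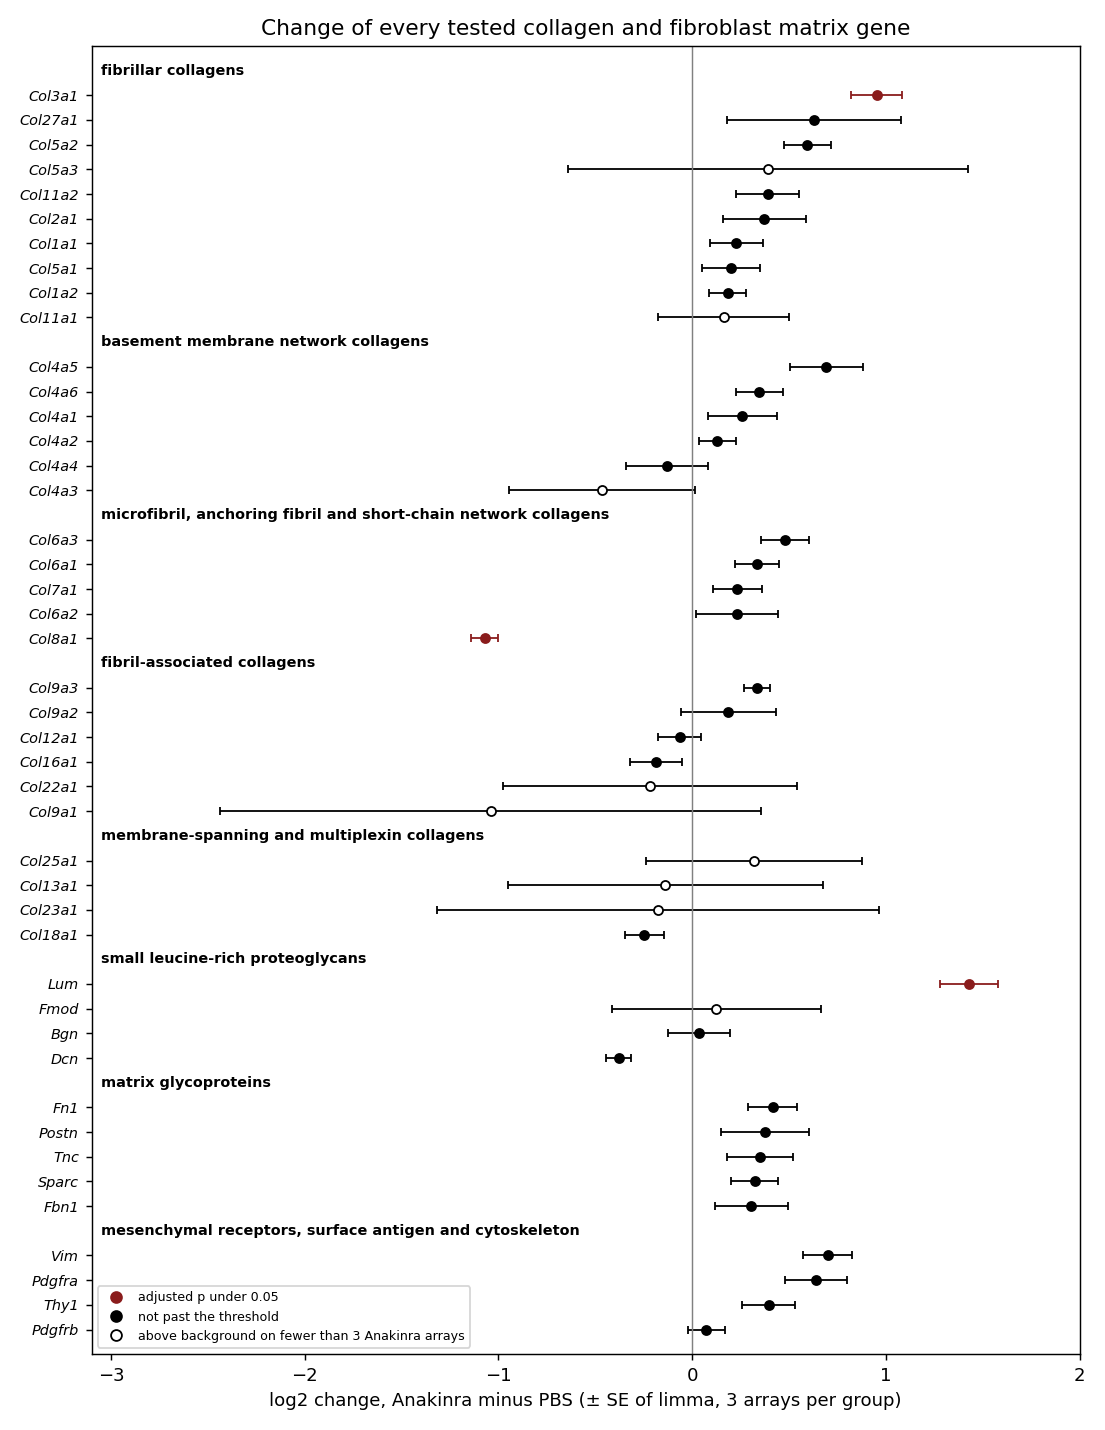
Log2 change of each of the 44 tested genes, Anakinra minus PBS, with the standard error from limma (3 arrays per group), grouped by role. Red points passed an adjusted p of 0.05 (Lum at 1.43, Col3a1 at 0.95 and Col8a1 at -1.07), and open points were above background on fewer than 3 Anakinra arrays and include the widest error, 1.40 for Col9a1.

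Col8a1 encodes a chain of type VIII collagen, a short-chain collagen that forms hexagonal networks and is known from the cornea and the vessel wall. Its level was 2.51, 2.38 and 2.43 in Anakinra 1, 2 and 3, and 3.56, 3.45 and 3.52 in PBS 1, 2 and 3. The 3 Anakinra arrays lay close together and below every PBS array. The change was -1.07 ± 0.07 (SE, n = 3 each), a 2.10-fold fall, with a limma adjusted p of 0.00610. The processed signal was 5692, 5670 and 5750 in Anakinra and 10204, 10771 and 11563 in PBS, far from the local background of 61.0 to 72.5. The tested probe lies at chr16:57548065-57548124 on mouse build mm8. A second probe of the gene, also above background on all 6 arrays, differed by -0.87. Within slide 1 the change was -0.98 and within slide 2 it was -1.16. A fit that blocked on slide gave -1.07 and an adjusted p of 0.0499. Leaving out PBS 1 or PBS 2 raised the adjusted p to 0.0650 and 0.0688, with changes of -1.04 and -1.10.

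Lum encodes lumican, a small leucine-rich proteoglycan that binds collagen fibrils in the dermis and cornea. The level of Lum was -4.10, -3.65 and -3.82 in Anakinra 1, 2 and 3, and -5.17, -5.21 and -5.48 in PBS 1, 2 and 3. The groups did not overlap, and the spread within each was small beside the gap between them. The change was 1.43 ± 0.15 (SE, n = 3 each), a 2.69-fold rise, with a limma adjusted p of 0.0200. Signals were close to background. The processed signal of Lum was 58.3, 86.3 and 75.5 in Anakinra and 23.9, 26.6 and 22.6 in PBS, beside a local background of 57.5 to 72.0 that the scanner had already subtracted. Its single probe lies at chr10:97002264-97002323 (mm8). The size of the Lum change depended on the background correction, at 0.51 (adjusted p 0.0414) with normexp and an offset of 50. Combined with quantile scaling it was 0.34 (adjusted p 0.352). Within slide 1 Lum differed by 1.24 and within slide 2 by 1.44, and blocking on slide gave 1.34 (adjusted p 0.0555). Leaving out Anakinra 3, PBS 1, PBS 2 or PBS 3 each ended the call, with adjusted p of 0.0790, 0.114, 0.156 and 0.0973.

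Col3a1 encodes the chain of type III collagen, a fibrillar collagen of skin and vessel walls. For Col3a1 the level was -1.81, -1.55 and -1.71 in Anakinra 1, 2 and 3, and -2.62, -2.85 and -2.45 in PBS 1, 2 and 3. Every Anakinra array lay above every PBS array. The change was 0.95 ± 0.13 (SE, n = 3 each), a 1.93-fold rise, with a limma adjusted p of 0.0402. Processed signals were 286, 372 and 327 in Anakinra and 140, 137 and 185 in PBS. The tested probe lies at chr1:45293290-45293349 (mm8), and the other 2 probes of the gene did not pass the filter. Within slide 1 Col3a1 differed by 0.84 and within slide 2 by 0.995, and blocking on slide gave 0.92 (adjusted p 0.143). Each of the 6 arrays left out in turn ended the Col3a1 call. Without Anakinra 1, 2 or 3 the adjusted p was 0.0875, 0.0762 and 0.117, and without PBS 1, 2 or 3 it was 0.200, 0.202 and 0.105, with changes between 0.85 and 1.05.

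**Figure D2:**
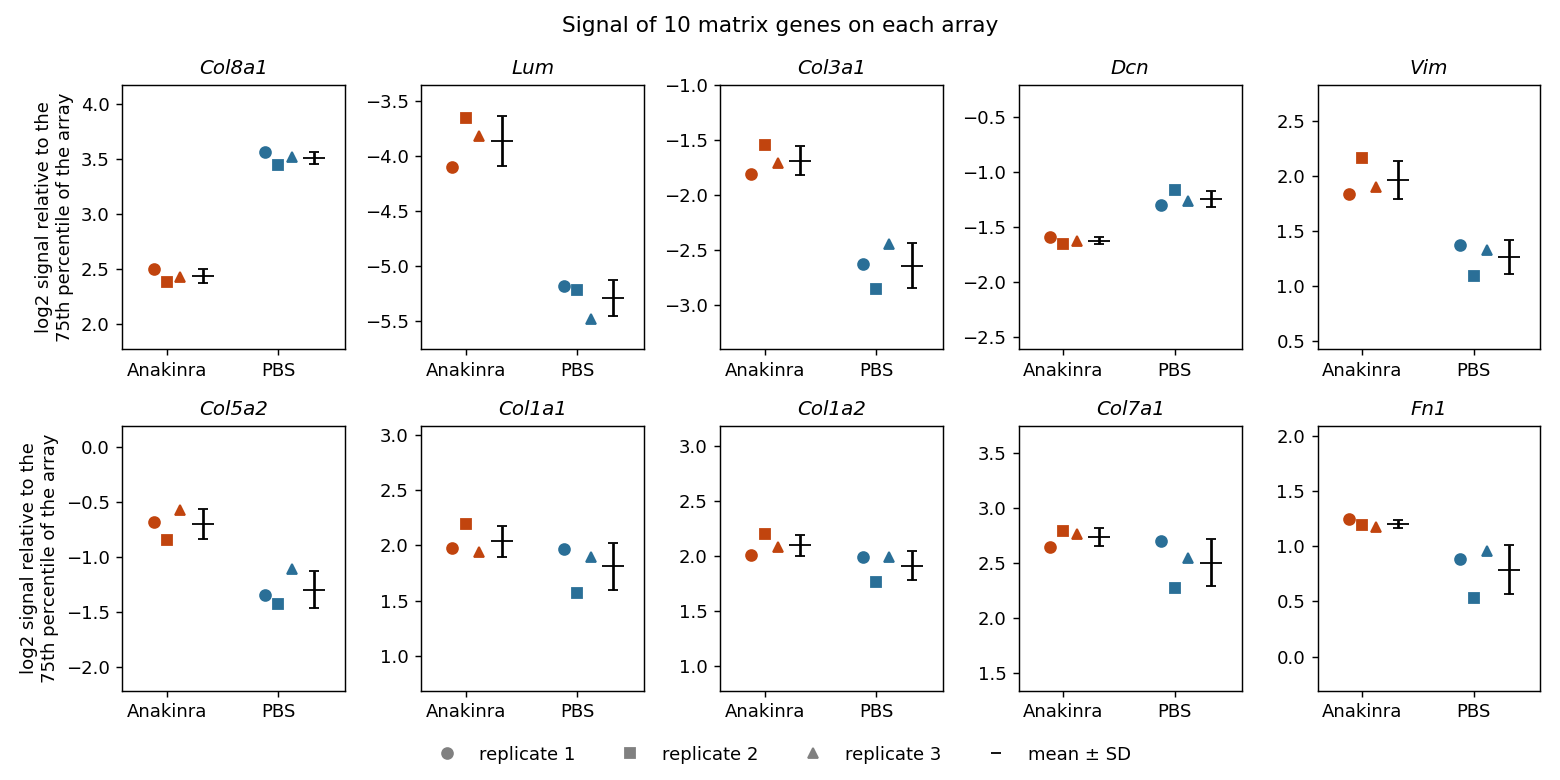
Log2 signal of 10 of the genes on each array, relative to the 75th percentile of that array, with Anakinra (orange) left of PBS (blue), a point per culture and the mean ± SD beside them (n = 3 each). All panels span the same log2 range. Col8a1 and Dcn lie lower in every Anakinra culture, Lum, Col3a1, Vim, Col5a2, Col1a2 and Fn1 lie higher, and the groups overlap for Col1a1 and Col7a1.

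The genomic setting of these genes was read from RefSeq's gene order on assembly GRCm38.p6. Lum and Dcn are neighbours on chromosome 10, where Lum changed by 1.43 and Dcn by -0.38 (adjusted p 0.0703). Col3a1 and Col5a2 are neighbours on chromosome 1, where Col3a1 changed by 0.95 and Col5a2 by 0.59 (adjusted p 0.0974). RefSeq promoter sequence was matched for 39 of the 52 members, and Lum was not among them. The 250 bases before the annotated start are printed for Col8a1 and Col3a1, called in opposite directions, and for Vim. Vim was not called, and its window held the most motif matches of the 3. Sequences run 5′ to 3′ on the gene's strand, with motif matches in capitals. Coordinates are chr16:57754738-57754987 on the minus strand for Col8a1, chr1:45311288-45311537 on the plus strand for Col3a1 and chr2:13574061-13574310 on the plus strand for Vim, all on GRCm38.p6.
Col8a1: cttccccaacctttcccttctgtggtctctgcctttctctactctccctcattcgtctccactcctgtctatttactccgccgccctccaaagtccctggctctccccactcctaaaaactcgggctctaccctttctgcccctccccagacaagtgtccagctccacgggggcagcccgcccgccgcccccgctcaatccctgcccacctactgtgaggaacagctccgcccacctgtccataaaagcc
Col3a1: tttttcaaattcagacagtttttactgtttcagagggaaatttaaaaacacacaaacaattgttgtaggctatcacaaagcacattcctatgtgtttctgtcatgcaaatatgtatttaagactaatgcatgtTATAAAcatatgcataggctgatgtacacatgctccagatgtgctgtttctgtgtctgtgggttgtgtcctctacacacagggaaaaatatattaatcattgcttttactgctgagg
Vim: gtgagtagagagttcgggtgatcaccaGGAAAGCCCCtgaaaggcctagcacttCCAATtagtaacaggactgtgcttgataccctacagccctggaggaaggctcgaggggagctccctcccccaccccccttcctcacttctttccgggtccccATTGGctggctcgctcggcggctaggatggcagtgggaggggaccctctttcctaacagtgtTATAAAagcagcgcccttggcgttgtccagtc
Motifs were searched as letters on both strands. The TATA box was TATAAA. The CCAAT box was CCAAT. The AP-1 site was TGANTCA, where N is any base. The kB site was 3 G, any 2 bases, 3 T and 2 C. In the 3 printed windows no match overlapped another. None was found in the Col8a1 window. The Col3a1 window held TATAAA, 117 to 112 bases before the start. The Vim window held TATAAA 32 to 27 bases before the start, CCAAT at 196 to 192 bases and, on the other strand, at 94 to 90 bases, and the kB letters on the other strand at 223 to 214 bases. Of 32851 promoters of this length in the RefSeq table, 12.4% held TATAAA, 33.8% CCAAT, 6.75% TGANTCA and 1.41% the kB letters. Among the 39 members matched, 6 held TATAAA (15.4%), 11 held CCAAT (28.2%), Col6a1 alone held TGANTCA and Vim alone held the kB letters.

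Fibrillar collagens numbered 11, of which 10 were tested. Col3a1 was called, no other passed the test, and all 10 changes were positive, with a median of 0.38 and a range of 0.16 to 0.95. Of these 10, 8 were above background on all 6 arrays, with the same median. With each array set to its median 6 of the 10 were positive, and with quantile scaling 9 were. Col1a1 and Col1a2, the chains of type I collagen, the main collagen of dermis and bone, differed little. Col1a1 had a level of 1.98, 2.20 and 1.94 in Anakinra and 1.97, 1.57 and 1.89 in PBS, and the groups overlapped (change 0.23 ± 0.14 SE, limma adjusted p 0.498). Col1a2 had a level of 2.01, 2.19 and 2.08 in Anakinra and 1.99, 1.76 and 1.99 in PBS. Those ranges missed each other by a narrow margin (change 0.18 ± 0.10 SE, limma adjusted p 0.435). The 10 repeated spots of the Col1a1 probe had a log2 SD of 0.0315 to 0.0835 within an array, smaller than the SD between cultures of 0.138 in Anakinra and 0.212 in PBS. Type V collagen joins type I in mixed fibrils. Its chain Col5a2 had a level of -0.68, -0.85 and -0.57 in Anakinra and -1.35, -1.43 and -1.11 in PBS, without overlap (change 0.59 ± 0.12 SE, limma adjusted p 0.0974). Col5a1 differed by 0.20. Col5a3 differed by 0.39 ± 1.03 SE, with 2 of 3 Anakinra arrays above background. A second passing probe of Col5a3, above background on 1 of 3 Anakinra arrays, had the opposite sign at -0.82.

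Col2a1, Col11a1, Col11a2 and Col27a1 encode fibrillar chains known mainly from cartilage. Col2a1 differed by 0.37 (limma adjusted p 0.473) and Col11a2 by 0.39 (adjusted p 0.333), both with overlapping groups. Col27a1 differed by 0.63 ± 0.45 SE (adjusted p 0.579) over 3 Anakinra arrays and 2 PBS arrays, because its spot on PBS 3 carried an outlier flag. Col11a1 differed by 0.16, with a signal above background in 2 of 3 Anakinra cultures. Col24a1 was not tested.

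Type IV chains form the network of basement membranes. All 6 were tested, none was called, and 4 of 6 changes were positive (2 of 6 with each array set to its median), with a median of 0.19. Col4a1 and Col4a2, which pair in most basement membranes, had overlapping groups and differed by 0.26 ± 0.18 and 0.13 ± 0.09 (SE, limma adjusted p 0.550 and 0.579). Col4a5 and Col4a6, neighbours on chromosome X whose products assemble together in skin, did not overlap. Col4a5 had a level of -2.25, -1.78 and -2.02 in Anakinra and -2.89, -2.84 and -2.40 in PBS, a change of 0.69 ± 0.19 SE (limma adjusted p 0.170). Col4a6 had a level of -0.79, -0.93 and -0.54 in Anakinra and -1.20, -1.11 and -1.001 in PBS, a change of 0.35 ± 0.12 SE (limma adjusted p 0.261), and its other 2 probes had the same sign. Col4a4 differed by -0.13 and Col4a3 by -0.47, the second with 1 of 3 Anakinra arrays above background.

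Microfibril, anchoring fibril and short-chain collagens numbered 8. Of the 5 tested, Col8a1 fell and the other 4 did not pass, with changes between 0.23 and 0.48. Type VI collagen forms beaded microfibrils around cells. Its chain Col6a3 had a level of -0.65, -0.57 and -0.53 in Anakinra and -1.04, -1.29 and -0.86 in PBS, without overlap (change 0.48 ± 0.12 SE, limma adjusted p 0.159). Col6a1 did not overlap either and differed by 0.33 ± 0.12 SE (adjusted p 0.252), while Col6a2 overlapped at 0.23 ± 0.21 SE (adjusted p 0.663). Col7a1, the anchoring fibril collagen that keratinocytes are known to make, had a level of 2.65, 2.80 and 2.77 in Anakinra and 2.70, 2.27 and 2.54 in PBS. Its groups overlapped, and the change was 0.23 ± 0.13 SE (limma adjusted p 0.445). Col8a2, the partner chain of Col8a1, was not tested, nor were Col10a1 and Col28a1.

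Fibril-associated collagens sit on the surface of fibrils. Of 9, 6 were tested, none was called, 2 were positive and the median was -0.13 (0.064 with normexp). Over the 4 above background on all 6 arrays the median was 0.061. Col9a3, a chain of type IX collagen, had a level of -1.11, -1.10 and -1.13 in Anakinra and -1.55, -1.41 and -1.39 in PBS, without overlap (change 0.33 ± 0.07 SE, limma adjusted p 0.0993). Col9a2 differed by 0.19, Col12a1 by -0.06 and Col16a1 by -0.19, all 3 with overlapping groups. A second probe of Col16a1, above background on 1 of 3 Anakinra arrays, had the opposite sign at 0.09. Col9a1 spanned -7.75 to -2.81 on the Anakinra arrays and -5.06 to -2.78 on the PBS arrays, which leaves its change of -1.04 with an SE of 1.40. Col22a1 differed by -0.22 ± 0.76 SE with 2 of 3 Anakinra arrays above background. Col14a1, Col19a1 and Col20a1 were not tested.

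Membrane-spanning collagens and the multiplexins numbered 5. Col18a1, a basement membrane collagen whose end fragment is endostatin, was the only one of the 4 tested that was above background on all 6 arrays. It had a level of 4.91, 4.90 and 4.82 in Anakinra and 5.31, 5.02 and 5.03 in PBS, lower in all 3 Anakinra cultures without passing the test (change -0.25 ± 0.10 SE, limma adjusted p 0.325). Col13a1, Col23a1 and Col25a1 each cleared background in 1 of 3 Anakinra cultures, and their changes of -0.14, -0.18 and 0.32 have SE between 0.56 and 1.14. Col15a1 was not tested.

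Among the small leucine-rich proteoglycans Lum rose and the other 3 did not pass. Decorin, encoded by Dcn, binds fibrillar collagen and growth factors. Dcn had a level of -1.59, -1.66 and -1.62 in Anakinra and -1.30, -1.16 and -1.27 in PBS. The 3 Anakinra cultures lay close together and below every PBS culture (change -0.38 ± 0.07 SE, limma adjusted p 0.0703). Bgn, encoding biglycan, had overlapping groups at 0.04 ± 0.16 SE, and Fmod, encoding fibromodulin, cleared background in 1 of 3 Anakinra cultures, at 0.13 ± 0.54 SE.

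The 5 matrix glycoproteins were above background on all 6 arrays, none was called, and all 5 changes were positive, between 0.30 and 0.42 (3 of 5 were positive with each array set to its median). Fn1, encoding fibronectin, had a level of 1.25, 1.19 and 1.18 in Anakinra and 0.88, 0.53 and 0.96 in PBS, without overlap (change 0.42 ± 0.13 SE, limma adjusted p 0.209). The 10 repeated spots of the Fn1 probe had an SD of 0.0347 to 0.0613 within an array. Sparc, encoding a collagen-binding protein also called osteonectin, had a level of 4.32, 4.27 and 4.11 in Anakinra and 4.03, 3.69 and 4.02 in PBS, again without overlap (change 0.32 ± 0.12 SE, limma adjusted p 0.291). On their tested probes Tnc (tenascin-C), Postn (periostin) and Fbn1 (fibrillin-1) had overlapping groups, with changes of 0.35, 0.37 and 0.30. Their limma adjusted p were 0.401, 0.501 and 0.505.

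Of the mesenchymal receptors, surface antigen and cytoskeletal gene, none was called and all 4 changes were positive (3 of 4 with each array set to its median), with a median of 0.52. Vim encodes vimentin, the intermediate filament protein of mesenchymal cells. Vim had a level of 1.83, 2.16 and 1.90 in Anakinra and 1.37, 1.09 and 1.33 in PBS, without overlap (change 0.70 ± 0.13 SE, limma adjusted p 0.0760). It passed the test under 3 of 20 alternatives, with normexp and quantile scaling, with the filter set to all 6 arrays and with a trended robust fit. Pdgfra, a receptor for platelet-derived growth factor on fibroblasts, had a level of -4.07, -3.51 and -3.77 in Anakinra and -4.47, -4.49 and -4.31 in PBS (change 0.64 ± 0.16 SE, limma adjusted p 0.148). Its groups did not overlap. A second passing probe had the opposite sign at -0.37, but was above background on only 1 of 3 Anakinra arrays. Thy1, a fibroblast surface antigen, did not overlap either (0.40 ± 0.14 SE, adjusted p 0.255), and Pdgfrb, the related receptor of pericytes and fibroblasts, overlapped at 0.07 ± 0.10 SE (adjusted p 0.780).

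**Figure D3:**
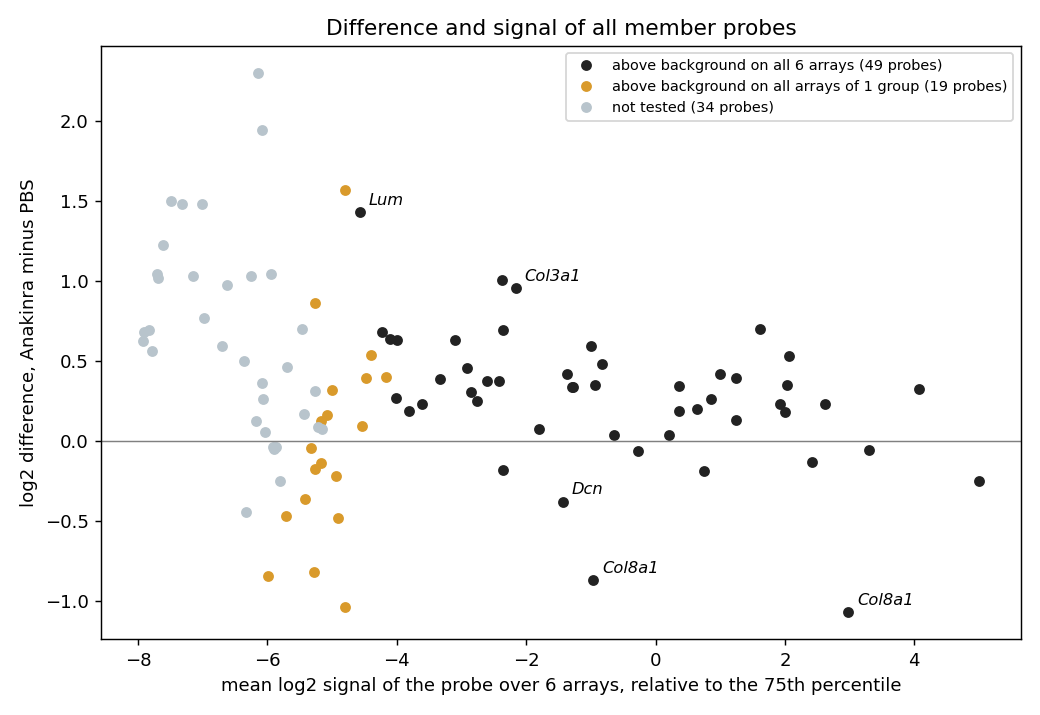
Log2 difference, Anakinra minus PBS, of all 102 probes of the 52 genes against their mean log2 signal over the 6 arrays, relative to the 75th percentile. The 49 probes above background on all 6 arrays (black) lie between -1.07 and 1.43 and the 34 untested probes (grey) lie at the dim end.

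Several probes of 1 gene gave a check within the arrays. Of 21 members with more than 1 passing probe, all passing probes had the same sign in 18, and the other 3 were Col16a1, Col5a3 and Pdgfra. In each of these 3 the second probe, of opposite sign, was above background on only 1 of 3 Anakinra arrays. The 3 Tnc probes differed by 0.35, 1.005 and 0.27, and the 3 Fn1 probes by 0.42, 0.34 and 0.86. The groups did not overlap on the Tnc probe at 1.005, and overlapped on those at 0.35 and 0.27. The 2 Col18a1 probes differed by -0.25 and -0.06. Direction was thus shared by most probe sets, while sizes differed.

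Genes that make or bind collagen were set beside the members. Of 31 enzymes and chaperones of collagen synthesis, 27 were tested, 1 was called lower, none was called higher and the median change was 0.02 (-0.31 with each array set to its median). The called gene was P4ha2, a subunit of the prolyl hydroxylase that stabilises the collagen helix. P4ha2 had a level of 1.30, 1.20 and 1.27 in Anakinra and 1.80, 1.78 and 1.78 in PBS, without overlap (change -0.53 ± 0.06 SE, limma adjusted p 0.0245). Of 10 collagen receptors 9 were tested and none was called, with a median of 0.12 (-0.21 with each array set to its median). Among them Itga11, a collagen-binding integrin of fibroblasts, differed by 0.56 (limma adjusted p 0.191) and Ddr2, a receptor tyrosine kinase for fibrillar collagen, by 0.30 (adjusted p 0.379).

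Of 36 other dermal matrix genes 21 were tested, 1 was called higher, none lower, and the median was 0.21 (-0.12 with each array set to its median). Spon2, encoding the secreted matrix protein mindin, had a level of 1.04, 1.004 and 0.93 in Anakinra and -0.15, -0.06 and 0.10 in PBS, without overlap (change 1.03 ± 0.09 SE, limma adjusted p 0.0124). Of 6 other basement membrane genes on the array 3 were tested. Nid1, encoding nidogen-1, which links laminin to type IV collagen, was called higher, with a level of -0.69, -0.79 and -0.59 in Anakinra and -1.50, -1.29 and -1.52 in PBS (change 0.74 ± 0.10 SE, limma adjusted p 0.0338). Agrn, encoding the basement membrane proteoglycan agrin, had a level of 3.27, 3.22 and 3.31 in Anakinra and 3.71, 3.50 and 3.56 in PBS, lower without overlap but not past the test (change -0.32 ± 0.08 SE, limma adjusted p 0.146). The summed signal of the 3 tested was 10.0 to 10.6 in Anakinra and 11.7 to 13.5 in PBS, of which Agrn made up 93.0% to 97.2%. P4ha2, Spon2 and Nid1 kept their sign under all 20 alternatives and passed the test under 7, 12 and 8 of them. Blocking on slide ended the calls of P4ha2 (-0.52, adjusted p 0.0986) and Nid1 (0.76, adjusted p 0.121), and left Spon2 at 1.07 (adjusted p 0.0499). Leaving out any single array ended the P4ha2 and Nid1 calls, with adjusted p from 0.0552 to 0.217 for P4ha2 and from 0.0518 to 0.186 for Nid1. The Spon2 call was lost without Anakinra 1 (adjusted p 0.0605), PBS 1 (0.0867) or PBS 2 (0.140).

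Markers of other cells moved unevenly. Of 11 tested fibroblast markers outside the matrix, Pdpn was called lower, none was called higher, 5 changes were positive and the median was -0.0046. With each array set to its median, 4 of 11 were positive and the median was -0.33. Quantile scaling gave 6 of 11 and 0.012. Pdpn encodes podoplanin, a surface glycoprotein of fibroblasts that activated keratinocytes carry too. Pdpn had a level of 1.22, 1.04 and 0.89 in Anakinra and 1.96, 2.15 and 1.95 in PBS, without overlap (change -0.97 ± 0.11 SE, limma adjusted p 0.0248). It kept its sign under all 20 alternatives and passed the test under 8 of them. A fit that blocked on slide gave -0.91 (adjusted p 0.0760), and leaving out any single array ended the call, with adjusted p from 0.0552 to 0.184. Summed signals add probes of different response and can rest on a single gene. That of the fibroblast list was 152 to 197 in Anakinra and 173 to 182 in PBS, and Acta2, an actin shared with smooth muscle, made up 80.0% to 87.7% of it. Without Acta2 the sum was 28.0 to 32.1 in Anakinra and 21.9 to 24.2 in PBS, without overlap. Most of that remainder came from S100a4 and Tagln, which differed by 0.81 and 0.61 (limma adjusted p 0.0812 and 0.0831). Pdpn and Twist2 went the other way at -0.97 and -0.79, so this sum does not give the direction of the list. No pericyte and smooth muscle marker was called, but all 7 tested were positive (4 of 7 with each array set to its median). Their median change was 0.40. Of the 7, Myh11 and Rgs5 were above background on 2 of 3 Anakinra arrays and Des on 1. The SE of these genes, 0.91, 0.83 and 1.21, exceeded their changes, so their signs carry little. The summed signal of the list was 10.6 to 11.8 in Anakinra against 8.27 to 9.12 in PBS. Mcam made up 74.6% to 83.6% of that sum, and without it the sum was 1.97 to 2.68 in Anakinra and 1.36 to 1.65 in PBS. Of that list Cnn1 differed by 0.85 (adjusted p 0.0808) and Notch3 by 0.40 (adjusted p 0.190). All 10 melanocyte markers were positive (2 of 10 with each array set to its median) and none was called, with a median of 0.24 and a summed signal of 107 to 116 in Anakinra against 92.4 to 111 in PBS.

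Endothelial markers had a summed signal of 1.78 to 2.15 in Anakinra against 2.19 to 2.33 in PBS, with 5 tested, none called and a median of -0.26. Egfl7 made up 76.6% to 83.6% of that sum, and without it the groups overlapped, at 0.332 to 0.503 in Anakinra and 0.381 to 0.410 in PBS. Immune markers (5 tested, none called, median -0.08) had a summed signal of 2.31 to 2.49 in Anakinra and 2.10 to 2.52 in PBS. Schwann cell markers (3 tested, none called, median 0.20) had 4.83 to 6.37 in Anakinra and 4.48 to 4.96 in PBS, of which Erbb3, which epidermal cells also express, made up 87.7% to 94.4%. Without Erbb3 the sums overlapped, at 0.270 to 0.632 in Anakinra and 0.309 to 0.343 in PBS. Dermal papilla markers (2 tested, none called, median -0.0025) had 0.149 to 0.261 in Anakinra and 0.161 to 0.191 in PBS. With each array set to its median, the median change was -0.59 for endothelial and -0.41 for immune markers. On that scale it was -0.13 for Schwann cell markers (1 of 3 positive) and -0.33 for dermal papilla markers. Of these lists, the genes with the smallest p were Kit (0.41) and Ednrb (0.52) for melanocytes and Egfl7 (-0.26) and Kdr (-0.45) for endothelium, with adjusted p of 0.122, 0.123, 0.228 and 0.242. They were Csf1r (-0.33) and Tyrobp (-0.11) for immune cells, Erbb3 (0.20) for Schwann cells, and Bmp4 (0.029) and Sox2 (-0.034) for dermal papilla, all with adjusted p above 0.2. The part of any of these cell types in the changes of the collagens and matrix genes was not tested.

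**Figure D4:**
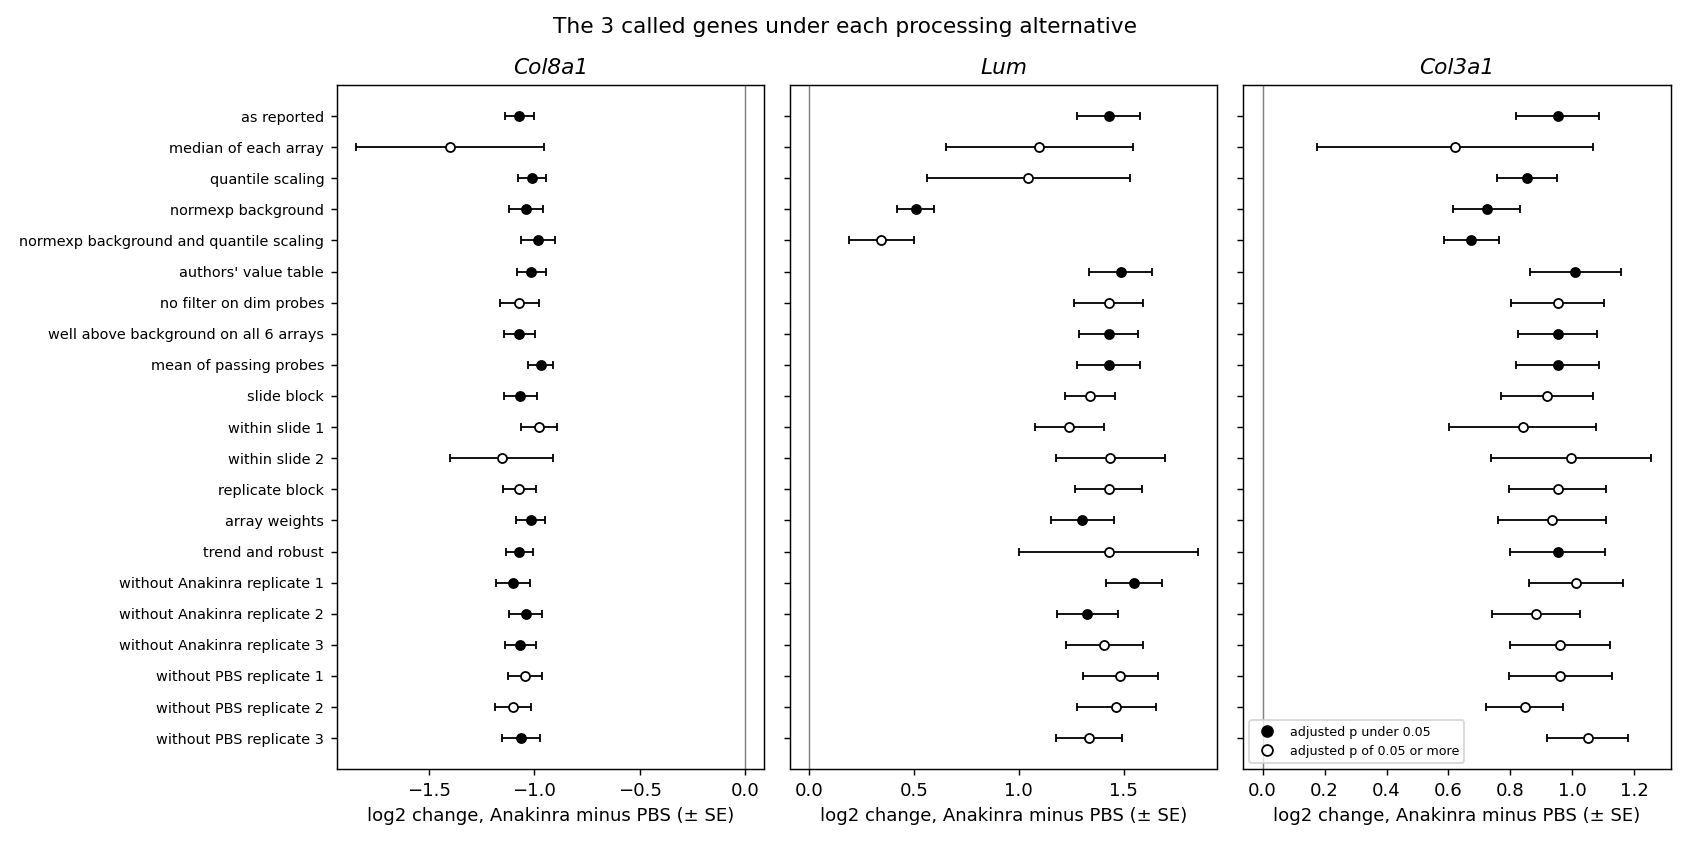
Log2 change of Col8a1, Lum and Col3a1, Anakinra minus PBS, with the standard error from limma, as reported and under 20 alternatives, each panel with its own scale. Filled points have an adjusted p under 0.05. All 20 alternatives kept the sign of each gene, and 13 of them passed the test for Col8a1, 7 for Lum and 7 for Col3a1.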

How the data were processed

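Total RNA of 6 cultures, 3 Anakinra and 3 PBS, was hybridised to 6 one-colour Agilent arrays. Per the file headers, spots were read with Agilent Feature Extraction 9.5.3.1, and the deposited processed intensity had been background-subtracted and detrended within each array, with no scaling between arrays. The authors' deposited table of values, which equals the log2 of that intensity plus a constant per array of unstated origin, served as an alternative.

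Neither control nor outlier-flagged spots were used, repeated spots were averaged, and log2 values were set against the 75th percentile of the array. The well-above-background flag set the filter, with at least 2 values per group, and the brightest passing probe stood for a gene. Names were updated through RefSeq GRCm38.p6 (by accession for 23374 probes), 8148 probes kept the file's name, and positions of probes come from the array's design (mm8). Groups were compared with limma 3.58.1 under R 4.3.3 (lmFit and eBayes, two-sided, Benjamini-Hochberg over 16495 genes). The procedure was also tested on simulated data, drawn with equal noise in both groups, although the Anakinra arrays here spread more. No spot was saturated, and the number of arrays limits the precision.

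Members, gene lists and tests were chosen with earlier results of these data known. All called members were named, every other member received its value or a range, and of each other list up to 4 called genes or else the 2 with the smallest p were named, apart from 1 gene that is not reported here. Agrn and the genes that make up most of a summed signal were named after their values were seen. Alternatives were other scalings, background corrections and filters, the authors' values, the slide or replicate number as a block, each slide alone, array weights, a trended robust fit, the mean of passing probes and each array left out.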

Additional observations from a re-analysis of the deposited data

How the results depend on the processing

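Over 20 alternatives Col8a1, Lum and Col3a1 kept their signs, with Lum moving most with the background correction. Per setting, the counts are of all genes called higher and lower, members called higher and lower, and genes of the other lists called in either direction. As reported these were 160, 132, 2, 1 and 4. They were 8, 49, 0, 0 and 0 with each array set to its median, where the members' median change reversed to -0.084 against 0.25 as reported. They were 280, 211, 2, 1 and 9 with normexp and quantile scaling (members' median 0.10), and 338, 240, 3, 2 and 8 with the filter set to all 6 arrays (members' median 0.32). With no filter they were 7, 29, 0, 0 and 0, with more genes tested, and with a trended robust fit 411, 375, 3, 1 and 13. With the slide as a block they were 18, 35, 0, 1 and 1, and within either slide alone, where limma had a single array in 1 group that was assumed to vary like the others, all were 0, with a members' median of 0.15 in slide 1. Quantile scaling left 1 member higher and a members' median of 0.16, and array weights left 1 member higher. Each array left out in turn gave 1 to 96 genes higher, 7 to 136 lower, 0 to 1 members higher, 0 to 1 lower, 0 to 3 list genes and members' medians of 0.17 to 0.33. The cause of these shifts was not tested.

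With the replicate number as a block 0 genes, 0 members and 0 list genes were called either way. Deviations of same-numbered cultures from their group means correlated at 0.41, -0.49 and -0.21 for numbers 1, 2 and 3. With 3 arrays per group, such deviations cannot settle whether the numbers pair the cultures, and the labels do not say. Of the 41 uncalled members, up to 15 changed sign under an alternative, the most with each array set to its median. Probes near background, such as Lum's, and 9 members dim on some Anakinra arrays limit what can be measured.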

Other observations

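Some collagens carry other names in the array files and so fall outside the rule by name; they were chosen after their values were seen. Col26a1, listed as Emid2, had a level of -0.95, -0.63 and -0.98 in Anakinra and 0.25, -0.07 and -0.10 in PBS, lower in all 3 Anakinra cultures (change -0.88 ± 0.15 SE, limma adjusted p 0.0636). Col6a4, listed as 1110001D15Rik, a type VI chain, differed by -0.17, and Col6a6, listed as E330026B02Rik, by 0.04 with 1 of 3 Anakinra arrays above background. Among fibroblast markers outside the matrix that did not pass the test, Twist2, a transcription factor of dermal fibroblasts, differed by -0.79 (adjusted p 0.0712) and S100a4, a calcium-binding protein, by 0.81 (adjusted p 0.0812).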
